A study of Mus musculus with 20 samples.

Results

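The structural genes of the sarcomere and Z-disc were examined in myotubes of the mouse line C2C12, a clonal myoblast line that fuses into multinucleated fibres when serum is lowered. The set comprised 41 of the 26722 genes in the deposited count table, taken by symbol, and it left out the myosin heavy chains and troponins. It was divided by role into 11 genes of the thin filament, 8 of the thick filament, 4 of titin and the M-band, 14 of the Z-disc and the costamere, and 4 involved in stretch sensing and protein turnover. Total RNA was sequenced from 20 cultures, 4 biological replicates of each of 5 treatments. All cultures were differentiated in low horse serum for 5 days and then treated for 16 h, and all received an antibody at 7.7 nM. The control received b12, a human IgG4 that serves as negative control. The bivalent group received 13-3B5, labelled as an activating antibody to the muscle receptor kinase MuSK. The agrin group received 0.1 nM neural agrin, the natural activator of MuSK, together with b12. In the remaining groups the same dose of agrin was combined with 13-3B5xb12 or with 11-3F6xb12, both labelled as monovalent inhibiting MuSK antibodies. The line is a single clone, so the replicates are cultures and not animals.

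Sarcomeres are built from thin filaments of actin, tropomyosin and nebulin that slide past thick filaments of myosin. Thin filaments are crosslinked at the Z-disc by alpha-actinin, thick filaments are crosslinked at the M-band by myomesins, and titin spans the distance between these structures. In a developing fibre, embryonic, cardiac and slow isoforms are made early and are supplemented by adult fast isoforms as the fibre matures. Agrin signalling through MuSK is best known for gathering acetylcholine receptors at the neuromuscular junction.

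Total counts ranged from 18424881 to 23343903 per library, and 40 of the 41 genes passed the filter on low counts. The exception was Myoz3, a calsarcin of fast fibres, with 0 to 8 counts in any library. Markers of the labelled cell type were present in all 20 libraries, with the fusion and muscle regulators Myog, Mymk and Mymx at 495 to 669, 66.8 to 127 and 40.5 to 110 CPM (counts scaled to a common library total) and the acetylcholine receptor subunit Chrna1 at 529 to 632 CPM. The first principal component, which held 21.0% of the variance, separated the libraries numbered 1 and 2 from those numbered 3 and 4 in every treatment. What a replicate number stands for, such as a day or a passage, is not given in the labels. The share of counts from mitochondrial genes was 30.2 to 39.1% in replicates 1 and 2 and 27.9 to 32.5% in replicates 3 and 4. On the second component, with 14.4% of the variance, the library of replicate 1 given agrin with 13-3B5xb12 and the control library of replicate 2 stood apart from the rest.

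Per kilobase of exon, the most abundant transcript was Mylpf, the fast regulatory myosin light chain, at 2424 CPM per kilobase over all libraries. It was followed by the skeletal alpha-actin Acta1 at 1514, the fast essential light chain Myl1 at 1043, the tropomyosin Tpm2 at 491 and the intermediate filament protein desmin (Des) at 422 CPM per kilobase. The giant proteins titin (Ttn) and nebulin (Neb) lay at 39.6 and 33.3 CPM per kilobase. At the low end were Myoz3 at 0.0129, the cardiac nebulin relative nebulette (Nebl) at 0.191 and the slow and ventricular essential light chain Myl3 at 0.196 CPM per kilobase. Acta1 and Actc1, Actn2 and Actn3, and the tropomyosins are related in sequence. Some of their reads may have been left uncounted or given to the wrong gene, which was not tested. The use of strand in counting is also not given in the sources used here. The values of these genes are uncertain to that extent.

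**Figure D1:**
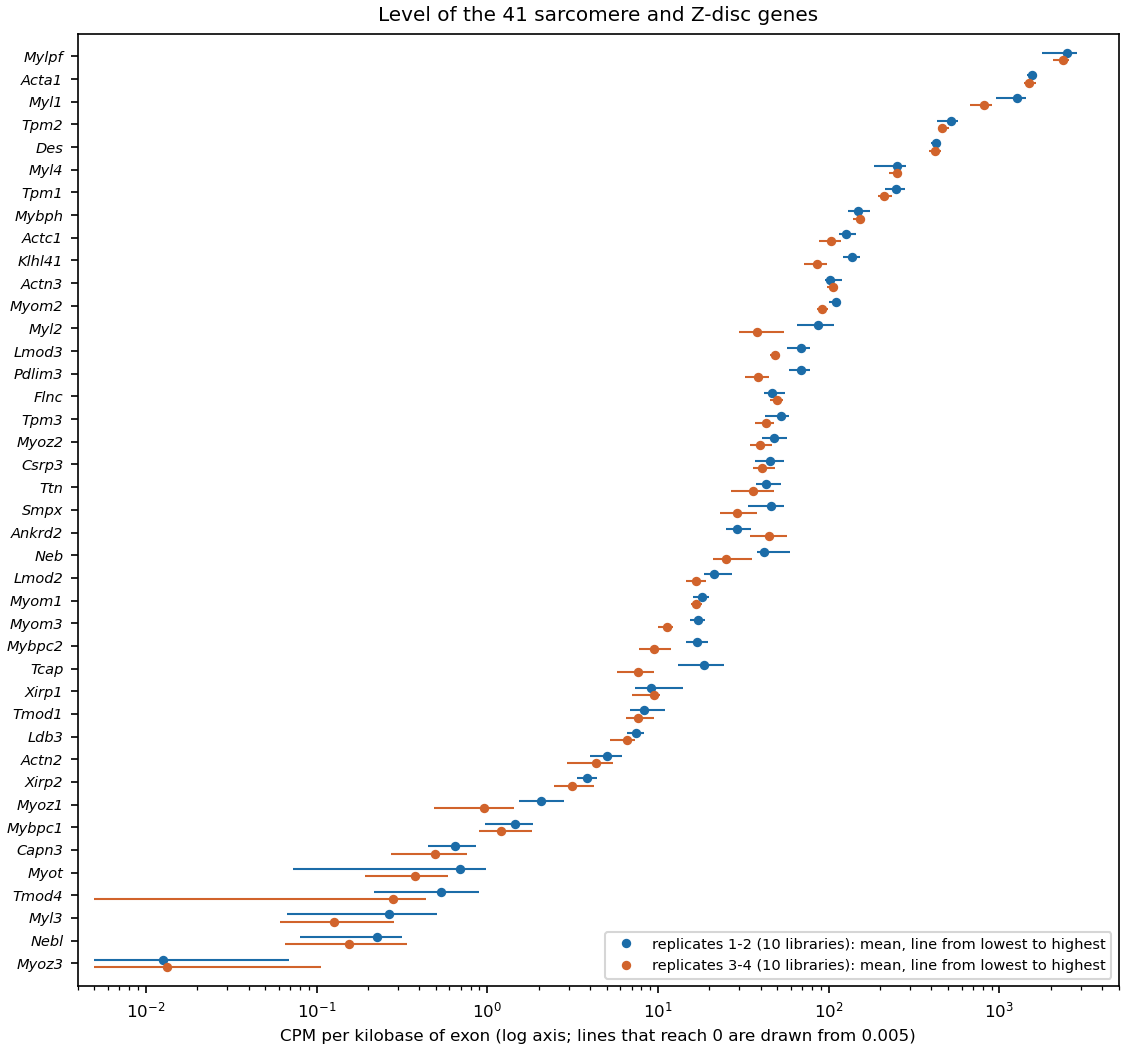
Level of each of the 41 genes in CPM per kilobase of exon on a log axis, ordered by level, with the mean over the 10 libraries of replicates 1-2 (blue) and of replicates 3-4 (orange) as points and the lowest and highest library as lines, where lines that reach 0 start at the left edge. Over all libraries Mylpf lies highest at 2424 and Myoz3 lowest at 0.0129 CPM per kilobase.

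Promoter windows of 300 bases were available in RefSeq (GRCm38.p6) for 32 of the 41 genes, and 6 are shown because they belong to genes with the strongest differences described below and to Acta1, whose level hardly varied. Each window is written 5′ to 3′ and holds the bases just before a RefSeq gene start and the first bases after it. Capitals mark matches, on either strand, to the E-box CANNTG, the MCAT element CATTCC, the CArG box or the MEF2 motif. Myl2 encodes the slow and ventricular regulatory light chain. Pdlim3 encodes an alpha-actinin-associated LIM protein of the Z-disc. Mybpc2 encodes the fast myosin-binding protein C. Klhl41 encodes a kelch protein that stabilises nebulin. Ankrd2 encodes a stretch-responsive ankyrin repeat protein. The windows lie at chr5:122092939-122093238 (plus strand) for Myl2, chr8:45885237-45885536 (plus) for Pdlim3, chr7:44524620-44524919 (minus) for Mybpc2, chr2:69669870-69670169 (plus) for Klhl41, chr19:42035777-42036076 (plus) for Ankrd2 and chr8:123894726-123895025 (minus) for Acta1. Both RefSeq starts of Myl2 lie upstream of the gene's first base in GENCODE, 122100951.
Myl2: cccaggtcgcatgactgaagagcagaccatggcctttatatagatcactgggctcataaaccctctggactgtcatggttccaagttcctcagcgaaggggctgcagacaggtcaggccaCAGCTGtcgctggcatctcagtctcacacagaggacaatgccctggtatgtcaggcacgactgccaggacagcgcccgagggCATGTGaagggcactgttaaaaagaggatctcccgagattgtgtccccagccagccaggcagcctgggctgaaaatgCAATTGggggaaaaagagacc
Pdlim3: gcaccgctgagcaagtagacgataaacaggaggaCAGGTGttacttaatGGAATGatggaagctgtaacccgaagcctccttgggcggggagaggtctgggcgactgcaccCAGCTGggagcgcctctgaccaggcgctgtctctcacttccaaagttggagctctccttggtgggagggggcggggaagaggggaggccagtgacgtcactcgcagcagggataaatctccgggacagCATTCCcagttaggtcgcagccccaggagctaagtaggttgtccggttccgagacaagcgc
Mybpc2: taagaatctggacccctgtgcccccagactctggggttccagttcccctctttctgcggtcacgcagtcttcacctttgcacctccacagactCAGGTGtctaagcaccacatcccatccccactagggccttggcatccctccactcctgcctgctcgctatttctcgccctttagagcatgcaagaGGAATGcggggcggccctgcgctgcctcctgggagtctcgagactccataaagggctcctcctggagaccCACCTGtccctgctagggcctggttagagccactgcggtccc
Klhl41: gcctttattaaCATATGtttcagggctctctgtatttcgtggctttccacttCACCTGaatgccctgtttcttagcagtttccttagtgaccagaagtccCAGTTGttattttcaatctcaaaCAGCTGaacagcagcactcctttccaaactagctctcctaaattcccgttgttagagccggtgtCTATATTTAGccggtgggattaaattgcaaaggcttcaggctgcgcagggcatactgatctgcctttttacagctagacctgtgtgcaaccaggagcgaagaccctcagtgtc
Ankrd2: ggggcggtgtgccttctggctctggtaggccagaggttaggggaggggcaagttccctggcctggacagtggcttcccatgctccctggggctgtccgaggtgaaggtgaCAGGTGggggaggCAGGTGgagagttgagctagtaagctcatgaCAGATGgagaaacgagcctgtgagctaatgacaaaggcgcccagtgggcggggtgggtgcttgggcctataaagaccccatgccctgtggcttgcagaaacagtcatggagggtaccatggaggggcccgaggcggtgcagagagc
Acta1: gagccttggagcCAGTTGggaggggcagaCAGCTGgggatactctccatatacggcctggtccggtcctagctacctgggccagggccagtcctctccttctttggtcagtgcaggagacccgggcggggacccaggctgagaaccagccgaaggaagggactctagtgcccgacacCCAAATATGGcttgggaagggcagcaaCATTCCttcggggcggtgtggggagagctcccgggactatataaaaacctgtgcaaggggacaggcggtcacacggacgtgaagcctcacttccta

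The E-box CANNTG occurred in the windows of 27 of the 32 genes, against 75.0% of all genes in the RefSeq table. Its CAGCTG form, which is a subset of CANNTG, occurred in 14 of the 32, against 18.3% of all genes. CATTCC was found in 11 of 32 (16.6% of all genes), the CArG box in 6 of 32 (1.81%), the MEF2 motif in 6 of 32 (3.70%) and TATAAA in 6 of 32 (15.7%). The matches are a description of these windows and do not show binding. Among the 16 matched genes that were lower in replicates 3 and 4, as described below, 8 held CAGCTG and 4 held the MEF2 motif, and among the 15 that did not pass that test 6 and 2 did.

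Whether activation of MuSK, or its inhibition in the presence of agrin, changes sarcomere transcripts was addressed by 8 comparisons between treatments. None of the 40 tested genes differed between any treatments at an adjusted p under 0.05 in edgeR's quasi-likelihood test, where 0% of all genes tested did in each of the 8 comparisons. DESeq2 called none of the 40 either. For the 33 genes with a mean above 8 CPM, the 95% interval of the log2 fold change of agrin from control reached from 0.13 (Des) to 1.13 (Tcap) to either side, with a median of 0.29. That model holds treatment alone, so differences between replicate numbers widen its intervals. With a term for replicates 3 and 4 against 1 and 2 added, the reach was 0.11 (Des) to 0.40 (Myl2), with a median of 0.17, and again no gene of the set was called in any of the 8 comparisons. Of all genes that term called 0.0137% for 11-3F6xb12 against agrin alone, 0.0205% for 11-3F6xb12 against control, 0.0685% between the monovalent antibodies and 0% otherwise.

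For agrin against control, no gene of the set had an unadjusted p under 0.05, against 2.85% of all genes, and the median log2 fold change was 0.01. For bivalent 13-3B5 the corresponding numbers were 0 genes against control (2.77% of all genes, median 0.00) and 0 genes against agrin (2.39%, median -0.02). Adding 13-3B5xb12 to agrin gave 0 genes against agrin alone (3.83% of all genes, median -0.08) and 1 gene against control (2.39%, median -0.06). Adding 11-3F6xb12 gave 0 genes against agrin alone (3.33%, median -0.01) and 1 gene against control (3.25%, median 0.00). The 2 monovalent antibodies, compared with each other in the presence of agrin, differed at that level in 1 gene (4.22% of all genes), with a median of 0.10 for 11-3F6xb12 minus 13-3B5xb12. With the replicate group term, 8 genes of the set had an unadjusted p under 0.05 between the monovalent antibodies, against 6.34% of all genes, and none of them passed after adjustment in edgeR. The 8 were Ldb3, Pdlim3, Smpx, Lmod3, Myl4, Myl1, Actc1 and Klhl41, all higher with 11-3F6xb12 than with 13-3B5xb12. For 13-3B5xb12 it gave 5 genes against agrin alone (5.18% of all genes) and 1 against control (3.3%), and for 11-3F6xb12 it gave 4 against agrin alone (5.02%) and 3 against control (4.81%). For agrin against control it gave 1 gene (4.12%), and for bivalent 13-3B5 it gave 0 against control (4.18%) and 0 against agrin (3.2%). Several of these comparisons share their control or agrin libraries and are not independent of each other.

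Among those 33 genes, the largest absolute log2 fold change was 0.15 for agrin against control and 0.42 between the monovalent antibodies, where it belonged to Smpx, a small cytoskeletal protein of muscle. The median standard error was 0.14 on the log2 scale in each comparison. In 13-3B5xb12 with agrin, Smpx stood at 76.4, 102, 54.1 and 64.5 CPM in replicates 1 to 4, and in 11-3F6xb12 with agrin at 122, 125, 71.6 and 77.3 CPM. In each replicate number the 11-3F6xb12 library was the higher, but the ranges overlapped, and the fitted difference was 0.42 (SE 0.29, adjusted p = 0.992 in edgeR, 95% interval -0.20 to 1.04). It passed at an adjusted p under 0.05 when no filter on low counts was applied, and when a replicate block and a length correction were fitted together. With the replicate block alone it did not pass. In the replicate comparison described below, the fit without a filter moved the p-value of Ttn far at the same log2 fold change. The shares of all genes called in these fits are not given here. Smpx was singled out after its values were seen.

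Des had its highest group mean in the control, where the 4 libraries lay close together. Its level was 1667, 1695, 1655 and 1705 CPM in the control, 1640, 1605, 1571 and 1654 CPM with bivalent 13-3B5, and 1525, 1489, 1473 and 1664 CPM with agrin. With agrin and 13-3B5xb12 it was 1601, 1589, 1588 and 1456 CPM, and with agrin and 11-3F6xb12 it was 1545, 1542, 1498 and 1553 CPM. The control libraries did not overlap with those given bivalent 13-3B5, 13-3B5xb12 or 11-3F6xb12, while the agrin group overlapped with the control through its replicate 4. The fitted log2 difference of 11-3F6xb12 with agrin from control was -0.13 (SE 0.06, unadjusted p = 0.0450, adjusted p = 1.00 in edgeR, 95% interval -0.26 to -0.00), and that of agrin from control was -0.13 (SE 0.06, unadjusted p = 0.0504).

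Few genes of the set had libraries that did not overlap between treatments. Against control this was so in 0 genes for agrin (1.72% of all genes), in 2 for bivalent 13-3B5 (1.88%), in 1 for 13-3B5xb12 (1.64%) and in 1 for 11-3F6xb12 (2.16%). Des accounted for 1 gene in each of the last 3 comparisons. The other was Capn3, a muscle calpain that binds titin, at 2.96, 2.51, 2.61 and 2.40 CPM in the control and 4.13, 3.28, 3.82 and 3.34 CPM with bivalent 13-3B5 (log2 fold change 0.48, SE 0.29, adjusted p = 0.999 in edgeR). Among the comparisons with agrin and between the monovalent antibodies, no gene of the set separated, against 2.38%, 2.31%, 2.90% and 2.72% of all genes for bivalent 13-3B5, 13-3B5xb12, 11-3F6xb12 and the pair of monovalent antibodies.

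Ldb3, a PDZ-LIM protein that ties alpha-actinin to other Z-disc proteins, gave the smallest p-values for 13-3B5xb12 with agrin. It stood at 40.7, 44.4, 36.7 and 31.8 CPM there, at 46.0, 49.0, 44.7 and 42.7 CPM in the 11-3F6xb12 group and at 46.8, 50.5, 44.6 and 38.9 CPM in the control. All 4 libraries given 13-3B5xb12 lay below the library of the same number in both other groups, with overlapping ranges. The log2 fold change was -0.24 (SE 0.10, unadjusted p = 0.0264, adjusted p = 1.00 in edgeR) against control, and 11-3F6xb12 minus 13-3B5xb12 was 0.25 (SE 0.10, unadjusted p = 0.0196, adjusted p = 0.992).

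The smallest p-values of the other comparisons belonged to Csrp3, Actc1 and Myl3. Csrp3, the muscle LIM protein of the Z-disc, stood at 125, 146, 114 and 103 CPM with agrin and at 100, 107, 102 and 109 CPM with 13-3B5xb12 added (log2 fold change -0.22, SE 0.11, adjusted p = 0.999 in edgeR). Actc1, the cardiac alpha-actin that embryonic skeletal muscle also makes, stood at 186, 188, 179 and 142 CPM with agrin and at 213, 233, 190 and 175 CPM with 11-3F6xb12 added (log2 fold change 0.22, SE 0.13, adjusted p = 1.00). In both genes the ranges overlapped. Myl3 was close to the detection limit, at 1.05, 0.704, 0.253 and 0.583 CPM with agrin and 0.480, 0.137, 0.351 and 0.129 CPM with bivalent 13-3B5 (log2 fold change -1.22, SE 0.75, adjusted p = 1.00).

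**Figure D2:**
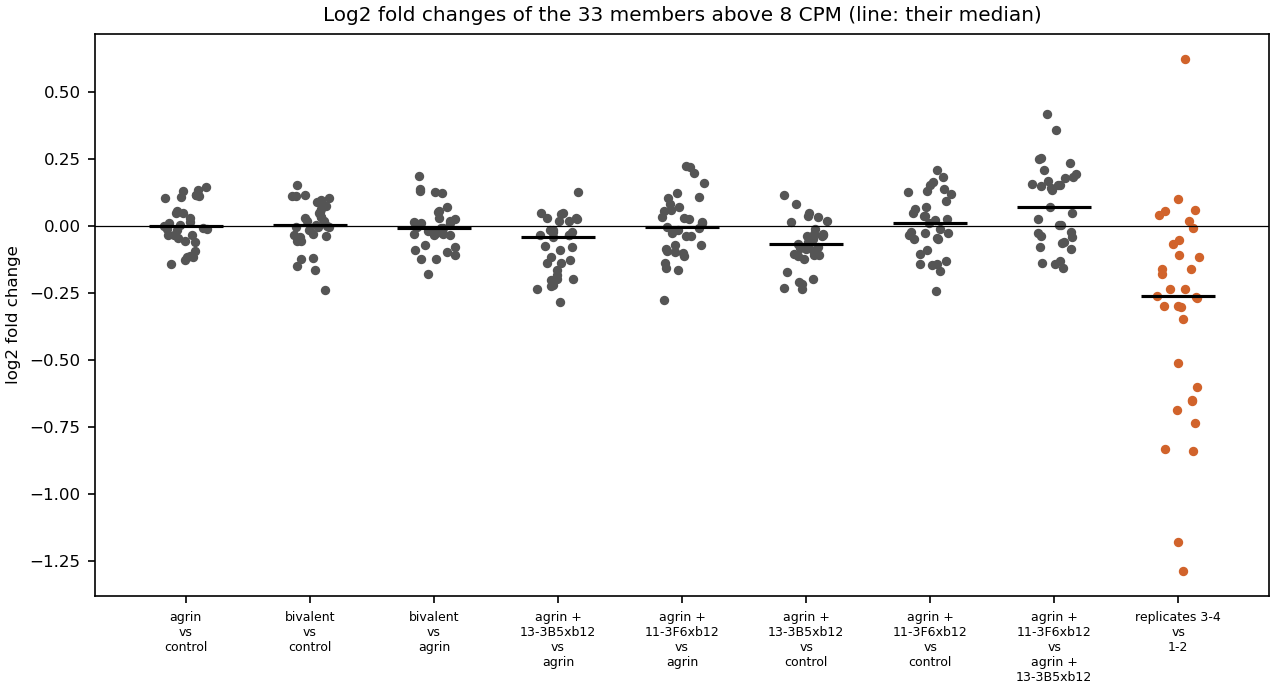
Log2 fold changes of the 33 genes with a mean above 8 CPM in the 8 comparisons between treatments (grey) and between replicates 3-4 and 1-2 (orange), each point a gene and each bar the median over those genes. The treatment comparisons stay within 0.42 of 0, and the replicate comparison reaches from -1.29 to 0.62.

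The same genes differed between the libraries numbered 3 and 4 and those numbered 1 and 2. With treatment in the model, 21 of 40 were lower in replicates 3 and 4, which is 52.5%, against 7.13% of all genes, and 1 was higher, against 5.93% of all genes (edgeR's quasi-likelihood test, adjusted p under 0.05, 13.1% of all genes in either direction). The log2 fold change was below 0 for 34 of the 40 and for 48.4% of all genes, and its median was -0.29 in the set and 0.01 over all genes. In 26 of 40 genes replicates 3 and 4 were lower in 5 of 5 treatments, against 10.3% of all genes, and in 1 gene they were higher in 5 of 5, against 10.6%. The 10 libraries of each kind did not overlap in 11 genes, all lower in replicates 3 and 4 (1.14% of all genes), and no gene of the set separated in the other direction (0.541%). Without the 2 libraries that stood apart, 22 genes of the set were lower and 3 higher, and the shares of all genes in that fit are not given here. Csrp3 and Mylpf were then added to the lower genes and Flnc and Xirp1 to the higher ones, while Myom1 no longer passed. The split by replicate number was first seen in these libraries, so its p-values describe the libraries and are not independent evidence. The test also counts the 10 libraries of each kind as independent, although the split lies between replicate numbers, 2 against 2. In RNA from whole cultures, fewer cells of a type and less RNA per cell cannot be told apart.

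**Figure D3:**
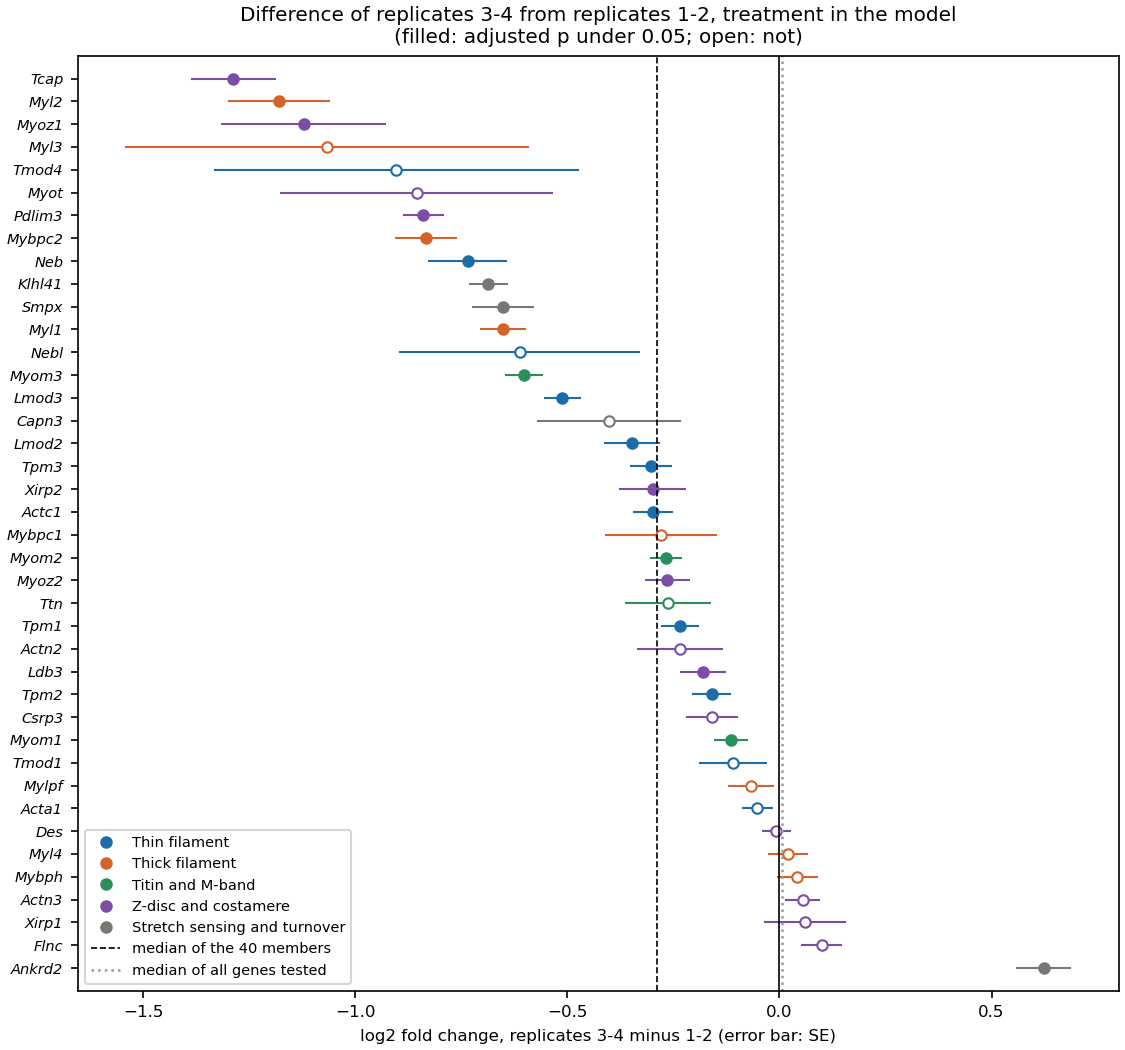
Log2 fold change of each of the 40 tested genes, replicates 3-4 minus 1-2, with its standard error, coloured by role and filled where the adjusted p is under 0.05. The genes run from Tcap at -1.29 to Ankrd2 at 0.62, and the dashed line marks their median of -0.29.

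In the thin filament 7 of 11 genes were lower (7.13% of all genes), with a median log2 fold change of -0.30, and none was higher (5.93%). The largest difference that passed was that of Neb (chromosome 2, 52136647 to 52378474, minus strand), which encodes the nebulin ruler of thin filament length. Neb ranged from 1006 to 1581 CPM (median 1049) in replicates 1 and 2 and from 562 to 949 CPM (median 636) in replicates 3 and 4, without overlap (log2 fold change -0.73, SE 0.09, adjusted p = 3.66e-05 in edgeR). Lmod3, a leiomodin that helps actin filaments form and grow, ranged from 126 to 173 CPM and from 101 to 113 CPM and also did not overlap (log2 fold change -0.51, SE 0.04, adjusted p = 7.17e-11 in edgeR). Its relative Lmod2 fell less, by 0.35 on the log2 scale, and the ranges touched.

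Of the alpha-actins, Actc1 was lower and Acta1 did not pass the test. Actc1 ranged from 186 to 233 CPM (median 203) in replicates 1 and 2 and from 142 to 190 CPM (median 168) in replicates 3 and 4, an overlap of few libraries (log2 fold change -0.30, SE 0.05, adjusted p = 1.47e-05 in edgeR). Acta1 (chromosome 8, 123891769 to 123894751, minus strand) ranged from 2221 to 2548 CPM (median 2352) and from 2138 to 2528 CPM (median 2281), which overlapped almost entirely (log2 fold change -0.05, SE 0.04, adjusted p = 0.421). Per kilobase the ratio of Actc1 to Acta1 was 0.0748 to 0.0951 in replicates 1 and 2 and 0.0589 to 0.0774 in replicates 3 and 4. This ratio was not tested.

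The tropomyosins, which lie along actin and gate the access of myosin, were lower by small amounts, with log2 fold changes of -0.30 for Tpm3, -0.23 for Tpm1 and -0.16 for Tpm2. Without replicate 1 Tpm2 did not pass (-0.11, adjusted p = 0.225 in edgeR), nor did it without replicate 3 or replicate 4. The tropomodulins cap the pointed end of the thin filament. Tmod1 did not pass the test (log2 fold change -0.11, SE 0.08), and neither did Tmod4, which was at most 1.55 CPM (0.372 to 1.55 CPM in replicates 1 and 2 and up to 0.749 CPM in replicates 3 and 4, log2 fold change -0.90, SE 0.43, adjusted p = 0.187). Tmod4 had 0 counts in agrin replicate 3, where up to 3 counts could go unseen. Nebl, at 1.22 to 4.82 and 1.00 to 5.14 CPM, did not pass either.

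In the thick filament 3 of 8 genes were lower (7.13% of all genes), with a median of -0.46. Myl2 ranged from 127 to 211 CPM (median 169) in replicates 1 and 2 and from 58.2 to 107 CPM (median 71.5) in replicates 3 and 4. The groups did not overlap, and the level was 2.27-fold lower in replicates 3 and 4 (log2 fold change -1.18, SE 0.12, adjusted p = 5.07e-06 in edgeR). Mybpc2 ranged from 52.4 to 71.3 CPM and from 28.0 to 43.0 CPM, again without overlap (log2 fold change -0.83, SE 0.07).

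Among the abundant light chains, Myl1 ranged from 1980 to 2986 CPM (median 2747) in replicates 1 and 2 and from 1394 to 1866 CPM (median 1715) in replicates 3 and 4, without overlap (log2 fold change -0.65, SE 0.05, adjusted p = 1.01e-09 in edgeR). Mylpf, its regulatory partner in fast fibres, ranged from 1894 to 3013 CPM (median 2628) and from 2191 to 2705 CPM (median 2535), and the groups overlapped throughout (log2 fold change -0.07, SE 0.05, adjusted p = 0.506). The lowest value of Mylpf came from agrin with 13-3B5xb12, replicate 1, one of the libraries that stood apart, and without that library the log2 fold change was -0.12 with an adjusted p of 0.0465.

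Myl4, the embryonic and atrial essential light chain, ranged from 859 to 1312 CPM (median 1198) and from 1053 to 1250 CPM (median 1172) and did not pass the test (log2 fold change 0.02, SE 0.05). With Myl1 lower and Myl4 level, the ratio of Myl4 to Myl1 per kilobase was 0.187 to 0.210 in replicates 1 and 2 and 0.276 to 0.338 in replicates 3 and 4, without overlap. By treatment its mean lay between 0.251 and 0.260. Mybph, a relative of myosin-binding protein C, ranged from 304 to 404 CPM and from 323 to 375 CPM (log2 fold change 0.04, SE 0.05), and the slow Mybpc1, at 4.04 to 8.41 CPM over all libraries, also did not pass. Myl3, at 0.137 to 1.05 and 0.125 to 0.583 CPM, did not pass (log2 fold change -1.07 with SE 0.48, adjusted p = 0.150).

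Of titin and the myomesins, which crosslink thick filaments at the M-band, 3 of 4 genes were lower (7.13% of all genes). Myom3 ranged from 92.9 to 114 CPM and from 60.2 to 74.3 CPM (log2 fold change -0.60, SE 0.04), and Myom2 from 890 to 1049 CPM and from 760 to 872 CPM (log2 fold change -0.27, SE 0.04), both without overlap. Myom1 was lower by a small amount, with a log2 fold change of -0.11 (adjusted p = 0.0492 in edgeR) and overlapping ranges, and it did not pass with any 1 replicate number left out, where its adjusted p was 0.105 to 0.244. The ratio of Myom1 to Myom3 per kilobase was 1.06 ± 0.104 (SD, n = 10) in replicates 1 and 2 and 1.48 ± 0.114 (SD, n = 10) in replicates 3 and 4, and these ranges did not overlap either.

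Ttn (chromosome 2, 76703980 to 76982547, minus strand) ranged from 4369 to 6120 CPM (median 4829) in replicates 1 and 2 and from 3144 to 5573 CPM (median 4273) in replicates 3 and 4. The groups overlapped, and the difference did not pass the test (log2 fold change -0.26, SE 0.10, adjusted p = 0.117 in edgeR). The overlap came from replicate 3, at 5045, 4599, 5573, 4473 and 4230 CPM in the 5 treatments, whereas replicate 4 stood at 3511, 3495, 4315, 3144 and 3691 CPM and was below replicate 3 in 5 of 5 treatments. Without replicate 3 the log2 fold change was -0.47 (adjusted p = 0.00173), and without replicate 4 it was -0.08 (adjusted p = 0.657).

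**Figure D4:**
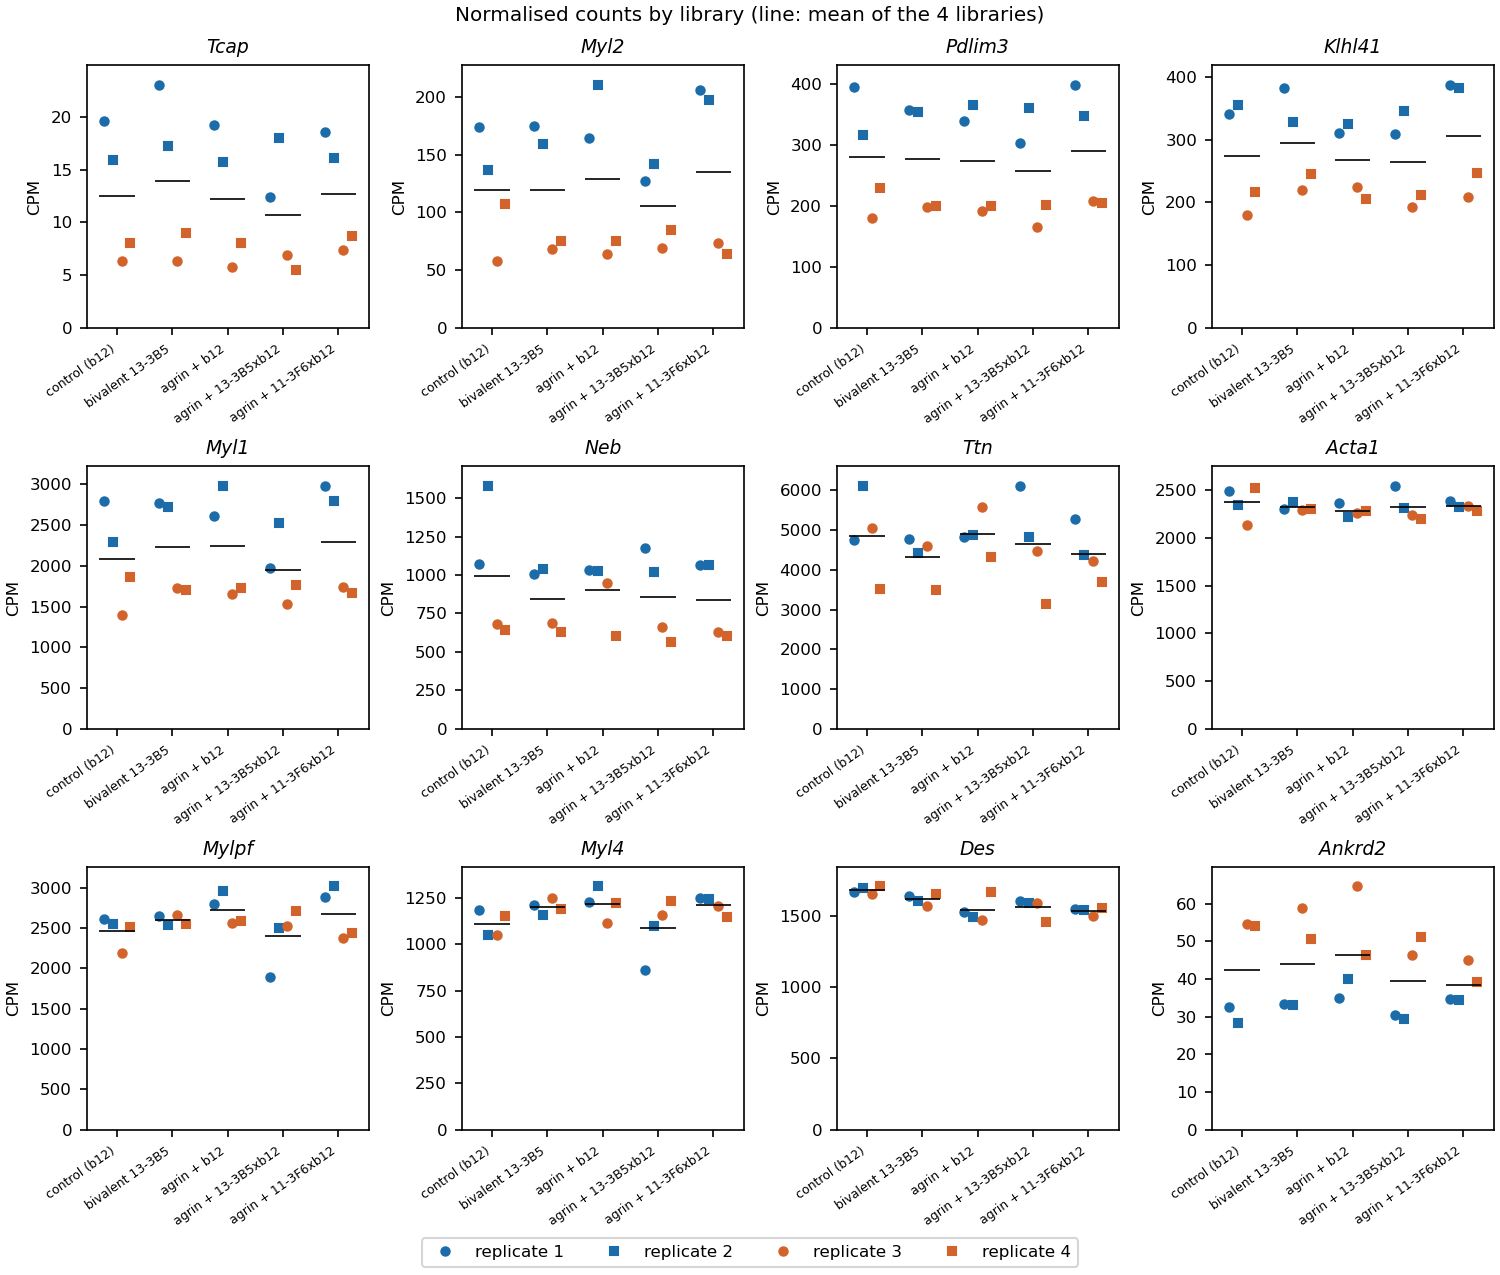
Level in CPM of 12 genes in each of the 20 libraries by treatment, with replicates 1 and 2 in blue, replicates 3 and 4 in orange and the mean of each treatment as a line. In Tcap, Myl2, Pdlim3, Klhl41, Myl1 and Neb every blue point lies above every orange one, the points of Acta1, Mylpf, Myl4 and Des mix, and in Ankrd2 the orange points lie higher.

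At the Z-disc 6 of 13 tested genes were lower (7.13% of all genes). Tcap (chromosome 11, 98383811 to 98384953, plus strand) encodes telethonin, which caps the end of titin at the Z-disc, and it had the largest difference of the set. Tcap ranged from 12.4 to 23.1 CPM (median 17.6) in replicates 1 and 2 and from 5.46 to 9.04 CPM (median 7.12) in replicates 3 and 4. The groups did not overlap, and the level was 2.44-fold lower (log2 fold change -1.29, SE 0.10, adjusted p = 7.59e-12 in edgeR).

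Pdlim3 (chromosome 8, 45885461 to 45919548, plus strand) had the smallest p-value. It ranged from 303 to 399 CPM (median 356) and from 166 to 230 CPM (median 200), without overlap (log2 fold change -0.84 with SE 0.05, adjusted p = 6.57e-15 in edgeR). Taken within each treatment, the difference lay between -0.86 and -0.80.

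The calsarcins bind alpha-actinin and the phosphatase calcineurin. Myoz1, the fast-fibre form, ranged from 2.91 to 5.30 CPM and from 0.920 to 2.71 CPM, without overlap (log2 fold change -1.12, SE 0.19, adjusted p = 6.48e-05 in edgeR). Myoz2, the slow and cardiac form, ranged from 139 to 195 CPM and from 118 to 160 CPM with overlap (log2 fold change -0.26, SE 0.05, adjusted p = 5.53e-04), and without replicate 3 it did not pass (-0.23, adjusted p = 0.0575). Xirp2, a relative of Xirp1, and Ldb3 were lower by 0.30 and 0.18 on the log2 scale with overlapping ranges. Without replicate 4 neither passed (Ldb3 at -0.09 with adjusted p = 0.462, Xirp2 at -0.27 with adjusted p = 0.0596, edgeR), and neither did so without replicate 2.

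The remaining Z-disc genes did not pass the test. Actn3, the alpha-actinin of fast fibres, ranged from 275 to 347 CPM and from 284 to 330 CPM (log2 fold change 0.05, SE 0.04), while Actn2, the form found in all fibres, ranged from 15.1 to 23.4 CPM and from 11.2 to 20.6 CPM (-0.23, SE 0.10, adjusted p = 0.140 in edgeR). Actn2 passed on counts summed per replicate number (-0.23, adjusted p = 0.0372). Des ranged from 1489 to 1695 CPM (median 1595) and from 1456 to 1705 CPM (median 1579), with a log2 fold change of -0.01 (SE 0.03). Csrp3 ranged from 98.9 to 146 CPM and from 96.2 to 130 CPM (-0.16, SE 0.06, adjusted p = 0.0856). The call on Csrp3 depended on the fit. It was lower in the fit with a replicate block (-0.16, adjusted p = 0.0293 in limma), on counts summed per replicate number (-0.17, adjusted p = 0.00398 in edgeR), with the length correction (-0.17, adjusted p = 0.0162) and without the 2 libraries that stood apart (-0.22, adjusted p = 0.00258). It also passed without a filter on low counts and with any 1 of 3 libraries left out, but not in DESeq2 (adjusted p = 0.0683).

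Filamin C (Flnc), an actin crosslinker at the Z-disc and the costamere, ranged from 393 to 520 CPM and from 426 to 509 CPM (log2 fold change 0.10, SE 0.05), and both groups overlapped throughout. Without the 2 libraries that stood apart it was higher in replicates 3 and 4 (0.15, adjusted p = 0.00903 in edgeR). Xirp1, an actin-binding Xin repeat protein, had medians of 51.4 and 55.9 CPM, with its highest library (81.8 CPM, control replicate 2) in the first group and its lowest (41.3 CPM, control replicate 4) in the second (log2 fold change 0.06, SE 0.10). It was likewise higher without the 2 libraries (0.16, adjusted p = 0.0455). Myotilin (Myot), at 0.161 to 2.19 and 0.424 to 1.31 CPM, did not pass either (log2 fold change -0.86 with SE 0.32, adjusted p = 0.0777 in edgeR). It was lower with the replicate block (-0.85, adjusted p = 0.0318 in limma), on summed counts (-0.91, adjusted p = 0.0293) and in DESeq2 (adjusted p = 0.0357).

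Of the genes for stretch sensing and turnover, Klhl41 and Smpx were lower and Ankrd2 was higher. Klhl41 ranged from 309 to 387 CPM (median 343) and from 181 to 246 CPM (median 214), without overlap (log2 fold change -0.69, SE 0.05, adjusted p = 1.40e-13 in edgeR). Smpx ranged from 76.4 to 125 CPM and from 52.5 to 86.1 CPM (log2 fold change -0.65, SE 0.07). Capn3, at 2.27 to 4.32 and 1.37 to 3.82 CPM, did not pass (-0.40, SE 0.17, adjusted p = 0.124).

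Ankrd2 (chromosome 19, 42036000 to 42045110, plus strand) was the 1 gene of the set that passed as higher in replicates 3 and 4 with all libraries in the fit. It ranged from 28.4 to 39.9 CPM (median 33.2) in replicates 1 and 2 and from 39.1 to 64.5 CPM (median 50.9) in replicates 3 and 4, so that the ranges only touched. It was 1.54-fold higher (log2 fold change 0.62, SE 0.07, adjusted p = 7.81e-09 in edgeR), with differences from 0.28 to 0.84 across the 5 treatments.

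Over all genes 7.13% were lower and 5.93% higher. By isoform, 5 of 11 fetal, cardiac or slow genes were lower and 1 was higher (median -0.30). Of the fast or adult genes, 4 of 8 tested were lower (median -0.58). Whether these lists differ was not tested. The set as a whole summed to 24324 ± 700 CPM (SD, n = 10) in replicates 1 and 2 and to 20651 ± 827 CPM (SD, n = 10) in replicates 3 and 4. The median deviation of the 40 genes from their own means was 0.06 to 0.22 on the log2 scale in the libraries of replicates 1 and 2 and -0.21 to -0.04 in those of replicates 3 and 4, and by treatment it lay between -0.02 and 0.04. Over 780 pairs of genes and 20 libraries, the median Pearson correlation was 0.39 with treatment means removed. It was 0.05 with the mean of each replicate group within each treatment removed instead. The same correlations were not computed over all genes.

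**Figure D5:**
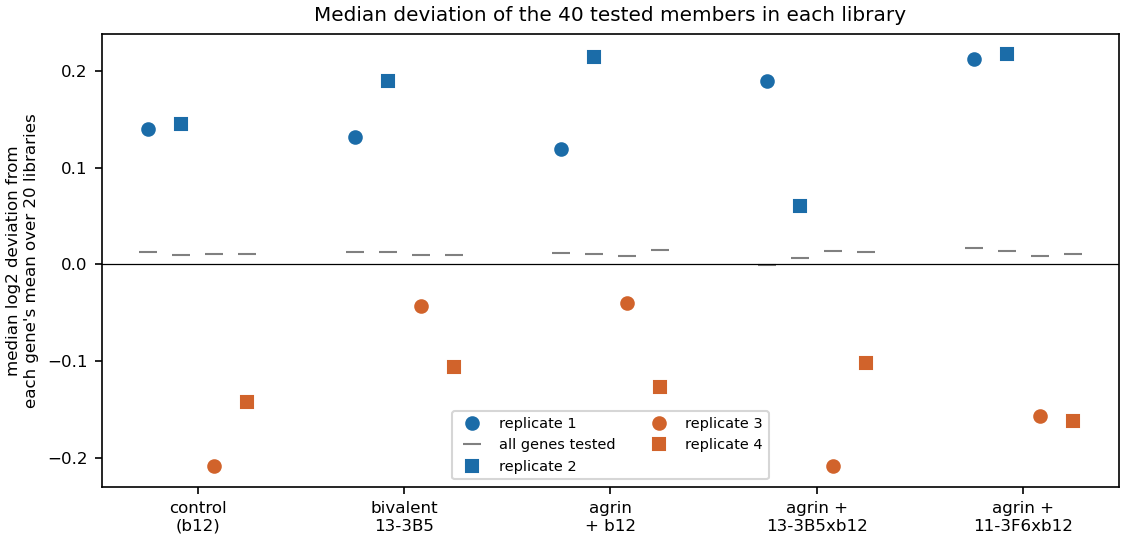
Median log2 deviation of the 40 tested genes from each gene's mean over all 20 libraries, one symbol per library, by treatment and replicate number, with the same median over all genes tested as a grey dash. All libraries of replicates 1 and 2 lie between 0.06 and 0.22 and all of replicates 3 and 4 between -0.21 and -0.04.

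Whether the difference between the replicate groups depended on treatment was tested with an interaction term. No gene of the set passed (edgeR, adjusted p under 0.05), where 1 of all genes did (0.00685%), and 8 of 40 had an unadjusted p under 0.05, against 4.85% of all genes. The smallest p belonged to Mybph (unadjusted p = 0.00153, adjusted p = 0.966). Its replicates 3 and 4 were lower in the control, at 323 and 328 CPM against 373 and 397 CPM, and higher with 13-3B5xb12 and agrin, at 371 and 359 CPM against 305 and 311 CPM.

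Other muscle genes were read on the same comparison, in which 7.13% of all genes were lower and 5.93% higher. Of 13 myosin heavy chains and troponins 6 were lower and none higher (median -0.24), and the 6 were the troponins Tnnc2, Tnni1, Tnni2, Tnnt1, Tnnt2 and Tnnt3. Of 30 assembly, chaperone and linker genes 12 were lower and 4 higher (median -0.11). They included the myosin light chain kinase Mylk2 at -1.62, its relative Mylk4 at 0.85 (adjusted p = 9.40e-04 in edgeR), the nebulin stabiliser Klhl40 at -0.49 and Ankrd1, a relative of Ankrd2, at 0.27 on the log2 scale.

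Markers of other cells moved with the replicate groups to differing degrees. In the same test 7.13% of all genes were lower and 5.93% higher. The median log2 fold change was -0.02 for the myotube list and 0.01 for the myoblast list. Of 9 myotube markers 3 were lower in replicates 3 and 4 (Ckm, Atp2a1 and Ryr1) and 1 was higher (Mymx), and their summed level was 3214 to 3560 CPM in replicates 1 and 2 and 3010 to 3483 CPM in replicates 3 and 4. Of 6 myoblast markers 1 was higher (Cdh15) and 1 lower (Id3), with sums of 268 to 318 and 305 to 381 CPM. Of 6 markers of dividing cells 1 was lower (Ccnb1), with sums of 133 to 222 and 108 to 227 CPM. All 6 had a log2 fold change below 0, and their median of -0.38 lay further from 0 than the -0.29 of the sarcomere set. An unadjusted p under 0.05 in edgeR was reached by 4 of these 6 markers, against 24.4% of all genes. Of 6 fibroblast markers 4 were lower, with sums of 4890 to 5437 and 4232 to 5098 CPM. The log2 fold change was below 0 for 5 of these 6, with a median of -0.22. Of the liver markers, Hp was the 1 that passed the filter, and it was higher in replicates 3 and 4 (log2 fold change 1.62, SE 0.24, adjusted p = 6.50e-06 in edgeR). The summed liver list was 0.579 to 3.17 CPM in replicates 1 and 2 and 0.683 to 12.1 CPM in replicates 3 and 4, with Alb at 0 in 17, Apoa1 in 16, Ttr in 18 and Fgb in 17 of 20 libraries. The immune list summed to 0.274 to 1.64 and 0.460 to 1.54 CPM, with Ptprc at 0 in 16 libraries, Lyz2 at 0 in 8 and Cd68 not passing the test. The adipocyte markers Plin1 and Fabp4 were at 0 in 20 and 14 libraries, and the endothelial markers Cdh5, Kdr and Pecam1 in 19, 19 and 14. The part of these markers, and of the mitochondrial share, in the differences of the sarcomere genes was not tested.

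Transcript length was set beside the same differences because the libraries that stood apart on the second component had high values of the long transcripts Ttn and Neb. In the quartile of the shortest genes, 15 genes of the set had a median log2 fold change of -0.65, and in the following quartiles 9, 8 and 8 genes had medians of -0.16, -0.29 and -0.26. Over all genes the medians of the 4 quartiles were 0.01, 0.01, 0.01 and 0.00. With a correction for exon length in the model 24 of the 40 genes passed, and the share of all genes in that fit is not given here. Ttn was among the 24 (-0.20, adjusted p = 0.00599 in edgeR). On counts summed per replicate number Ttn did not pass (-0.26, adjusted p = 0.550 in edgeR). In the fit with a replicate block it did not pass either (-0.27, adjusted p = 0.0671 in limma).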

How the data were processed

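Raw counts per gene for 20 libraries were deposited by the authors in a table keyed by Ensembl ID and symbol, with no normalization. Libraries were stranded and depleted of ribosomal RNA, per the labels' protocols. Trim Galore 0.6.6, cutadapt 2.10, STAR 2.7.6a, HTSeq 0.12.4, DESeq2 1.32.0 and GRCm38 are named in the submitters' processing notes, and the annotation release and strand setting are not given in the sources used here. Treatments and replicate numbers come from the labels.

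Counts were fitted in R 4.3.3 with edgeR 4.0.16 (TMM scaling, filterByExpr at its defaults of 10 and 15 counts, 14605 genes, robust quasi-likelihood F-test, two-sided). Treatment comparisons used treatment alone (15 residual degrees of freedom), and the replicate comparison added a term for replicates 3 and 4 against 1 and 2. P-values were adjusted over all genes tested by the Benjamini-Hochberg method at 0.05, with log2 CPM at a prior count of 2. Alternatives used DESeq2 1.42.0 and limma 3.58.1. The fits were tested on simulated counts drawn independently for each library. Apart from the added fold changes, these counts held no effect shared by a replicate number and no library that stood apart. The simulation therefore does not cover such effects. Gene lengths and positions are those of GENCODE M21 (GRCm38), which held 26667 of the 26722 gene IDs.

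Values by library, or their ranges, are given for 14 chosen genes and for the 5 highest and 5 lowest by replicate difference. They are also given for the smallest p of each treatment comparison. Other genes of the set are described by log2 fold change, level or range. This rule was written down with the gene lists. The values by library of Smpx, Pdlim3 and Klhl41 lie outside it. The genes and lists were chosen with earlier results of these data known. Libraries of the same number deviated together (every correlation above 0.1) in 4 of the 8 treatment comparisons, with the pairing taken from the titles. Replicates are labelled biological.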

Additional observations from a re-analysis of the deposited data

Results flagged for a closer look

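Single libraries lay far from the others of their group in 12 of 168 sets of values examined. These were the values of 23 genes and the median deviation of the set, each in 7 groups of libraries. Chance gives about 1 in 20, or 8.4. In treatment groups of 4, Capn3 was high in agrin replicate 2 at 4.32 CPM (others 2.02 to 2.27), Des was low in replicate 4 of agrin with 13-3B5xb12 at 1456 CPM (others 1588 to 1601), and Myoz2 was low in replicate 3 of that group at 127 CPM (others 141 to 142). In replicate 1 of agrin with 11-3F6xb12, Myl3 was high at 0.773 CPM (others 0.125 to 0.198) and Xirp1 low at 48.2 CPM (others 55.0 to 56.0).

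Among the 10 libraries of replicates 1 and 2, replicate 1 of agrin with 13-3B5xb12 had Actn3 at 347 CPM (others 275 to 312) and Mylpf at 1894 CPM (others 2496 to 3013). Control replicate 2 had Neb at 1581 CPM (others 1006 to 1175) and Xirp1 at 81.8 CPM (others 43.0 to 55.4). These are the libraries that stood apart on the second principal component. Among the 10 of replicates 3 and 4, Acta1 stood at 2528 CPM in control replicate 4 (others 2138 to 2333), Xirp1 at 41.3 CPM in that library (others 55.0 or more) and Neb at 949 CPM in agrin replicate 3 (others 562 to 691).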

How the results depend on the processing

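No gene of the set was called in 7 of the 8 treatment comparisons under any alternative: DESeq2 size factors, no filter, a mean count of at least 10, removal of genes above 1% of a library, DESeq2's test, fits of the groups alone, a replicate group term, a replicate block, or each library left out. Between 11-3F6xb12 and 13-3B5xb12 with agrin, 1 gene (Smpx) was called without a filter and 1 (Smpx) with the replicate block and length correction together. The replicate block alone called 0 genes in all 8 comparisons. For the comparisons in which the numbers did not all deviate together, 3 to 5 of 8 libraries correlated best with their own number. The count between replicate groups was 22, and 22 to 25 under 9 alternatives, with 24 in a replicate block (limma's voom with a within-number correlation of -0.0539), and 18 to 23 with a library or number left out. The shares of all genes called under these alternatives are not given here. Genes gained were Csrp3 and Myot in the block, these and Actn2 on summed counts, Myot in DESeq2, and Csrp3 and Ttn with the length correction. The interaction called 2 genes of the set without a filter (Mylpf and Xirp1) and 0 in the main fit. Each of them had a library far from the others among replicates 1 and 2, as described above. The share of all genes called by the interaction without a filter is not given here. The difference of the library medians was -0.29, and -0.29 to -0.30 otherwise. Of the genes near 0, Myl4 turned to -0.036 without the 2 libraries that stood apart. With a library or number left out, 4 genes changed sign: Myl4 ranged from -0.023 to 0.044, Des from -0.032 to 0.015, Mybph from -0.015 to 0.092 and Xirp1 from -0.076 to 0.19. Without a filter Ttn, Csrp3 and Nebl passed (-0.26, -0.16 and -0.61) and Myom1 did not. The adjusted p of Ttn in edgeR was then 7.60e-16, against 0.117 with the filter, at the same log2 fold change of -0.26. P-values of the fit without a filter therefore differ from the main fit by more than the fold changes do. The causes were not tested.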
